A study of Arabidopsis thaliana with 6 samples.

Results

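The 10 genes described here form 5 pairs of chromosomal neighbours in Arabidopsis thaliana, and both genes of each pair were higher in YFP-positive than in YFP-negative cells. The genes were taken by locus, each through a probe set annotated to that gene alone, and all 10 of 10 loci had exactly 1 such probe set among the 16550 genes that could be named. The pairs were chosen by the measured log2 difference between the 2 groups in a fit to these same arrays, so that difference is given as a description and supports nothing. In RefSeq's gene order for assembly TAIR10.1 no gene lay between the members of any pair, and the spans of the 2 genes overlapped in 0 of the 5. The table holds no strand, so whether partners point toward each other, away or the same way was not analysed here.

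The 6 arrays came from cotyledons of SEOR1pro::SEOR1-YFP plants, in which SEOR1, a structural protein of the sieve element, is fused to YFP and driven by its own promoter. Both groups carried this transgene, came from 6-day-old seedlings and were cultured for 72 hours with the synthetic auxin 2,4-D at 1.25 mg/L, the cytokinin kinetin at 0.25 mg/L and the GSK3 kinase inhibitor bikinin at 10 µM. Protoplasts were then sorted into YFP-positive cells, labelled phloem, and YFP-negative cells, 3 arrays each. The labels do not say whether replicates were separate cultures, and p-values then measure only the spread between these arrays, which may be technical.

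The culture system, known as VISUAL, turns leaf mesophyll cells into vascular cells, among them sieve elements, the conducting cells of the phloem. Sieve elements lose their nucleus and much of their cell contents as they mature, so their messenger RNAs are made earlier, while the cell differentiates. Neighbouring plant genes can be expressed alike where they arose by tandem duplication, share regulatory sequence or lie in the same stretch of open chromatin, and many neighbours are expressed independently.

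What the members encode is known to different degrees. AT3G06270 encodes a type 2C protein phosphatase, an enzyme class that removes phosphate from serine and threonine residues, and its neighbour AT3G06280 a protein annotated as F-box associated. AT4G19050 belongs to the nucleotide-binding leucine-rich repeat proteins, the main class of intracellular immune receptors of plants, and AT4G19060 next to it encodes a nucleotide-binding P-loop protein. AT5G67040 encodes an F-box protein, a class that selects other proteins for ubiquitination, and AT5G67050 an alpha/beta-hydrolase of the class 3 lipases. AT1G76220 encodes a plant protein with a domain of unknown function. No role is given here for AT1G76230, AT3G25573 or AT3G25577.

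How well the sort parted phloem from other cells could be checked on few markers. SEOR1 itself and most phloem markers were not analysed here under a name. Of 18 phloem markers 6 were measured, 5 of them with positive differences and a median log2 difference of 0.54, and 0 passed in limma over all genes. CLE45, a peptide gene of the early phloem, came nearest, with a log2 difference of 2.15 that limma gave an adjusted p of 0.0951. All 4 measured photosynthesis genes of 17 had negative differences, with a median of -0.89 and 0 calls in limma. Their summed log2 value ran from 27.4 to 32.9 on YFP-negative arrays and from 26.1 to 28.0 on YFP-positive arrays, and its part in the results below was not tested. Of the lists of xylem, procambium and cambium, and epidermis and guard cells, 1 of 12, 1 of 4 and 3 of 9 genes were measured, with medians of -0.49, 0.52 and -0.26 and 0 calls in limma.

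All values are the authors' deposited log2 values, and a difference is YFP-positive minus YFP-negative on that scale. The members' differences ran from 2.87 to 7.66 with a median of 5.13, against a median of 4.83 over all 142 genes that limma called higher at an adjusted p under 0.05. That call was made for 0.858% of the 16550 genes and for 10 of the 10 members, and nothing is read from the members' count because the same contrast chose them. For all 10 members the groups did not overlap, with gaps of 2.12 to 7.09 between the highest YFP-negative and the lowest YFP-positive value, where 4.96% of all genes had such a gap. A limma fit that took the replicate number as a block called 0.495% of genes higher and 4 of the 10 members, which were AT1G76220, AT3G25573, AT3G25577 and AT5G67040. In sorted cells a lower share of cells with a transcript and less transcript per cell cannot be told apart.

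In some adjacent pairs a gene was called higher and its neighbour fell just outside the threshold. AT5G38090, next to the called gene AT5G38080, had a difference of 3.13, and AT5G04680, next to AT5G04690, one of 6.40. AT3G01010, next to AT3G01015 with a difference of 2.33, had one of 2.90. The threshold is on the adjusted p, which in limma was 0.0506, 0.0519 and 0.0559 for these neighbours in turn. Passing it does not alone define the pairs described here, since other adjacent pairs, named under the other observations, passed with both genes. Among the members the largest adjusted p in limma was 0.0328. The member with the smallest difference was AT4G19060, at 2.87.

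**Figure D1:**
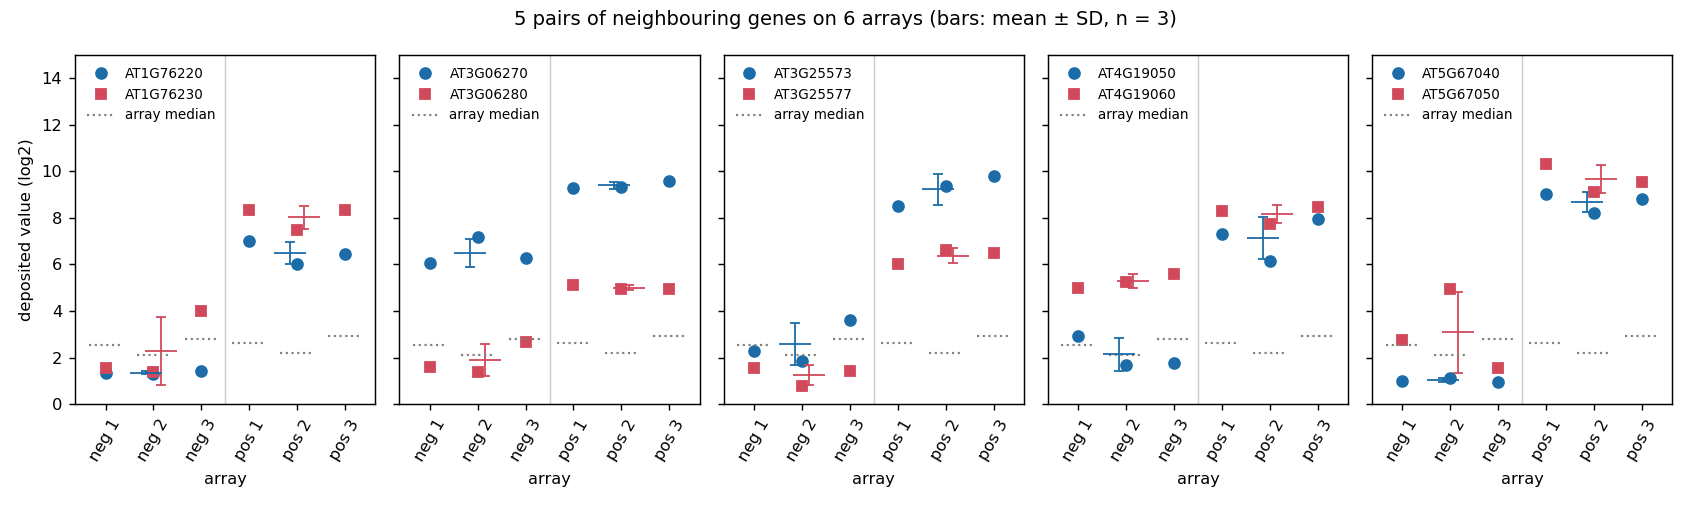
Deposited log2 value (y axis) of both genes of each pair on the 3 YFP-negative (neg) and 3 YFP-positive (pos) arrays (x axis), with the mean and SD of each group as bars and the median of each array as a dotted line. Every YFP-positive point lies above every YFP-negative point of its gene, and AT1G76230 on YFP-negative array 3 (3.98) and AT5G67050 on YFP-negative array 2 (4.95) stand above the other YFP-negative values of those genes.

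AT5G67040 and AT5G67050, an F-box gene and a lipase gene, shared their order over the arrays of each group and differed in their spread over the YFP-negative arrays. AT5G67040, the F-box gene, stood at 0.98, 1.12 and 0.96 on YFP-negative arrays 1 to 3 and at 9.03, 8.21 and 8.82 on YFP-positive arrays 1 to 3. It was therefore flat at the dim end of the YFP-negative arrays, where 5.44% to 15.2% of all probe sets had lower values, and among the brightest 10% on YFP-positive arrays, where at least 92.9% did. Its difference of deposited values was 7.66 (SE 0.29). AT5G67050, the lipase gene, stood at 2.74, 4.95 and 1.53 against 10.30, 9.11 and 9.54, a difference of 6.57 (SE 0.88). It varied more than its neighbour across YFP-negative arrays, with an SD of 1.74 against 0.09 for AT5G67040. Both genes were highest there on array 2 and lowest on array 3, AT5G67040 by small steps at dim values. Within same-numbered arrays the differences of AT5G67050 were 7.56, 4.15 and 8.01, so the gap was smallest where the YFP-negative value was highest. On YFP-positive arrays both genes were highest on array 1 and lowest on array 2.

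AT3G25573 and AT3G25577 had the most similar profiles of the 5 pairs. AT3G25573 stood at 2.30, 1.85 and 3.61 on YFP-negative arrays and at 8.49, 9.35 and 9.81 on YFP-positive arrays, a difference of 6.63 (SE 0.57). AT3G25577 stood at 1.55, 0.78 and 1.44 against 6.01, 6.63 and 6.47, a difference of 5.12 (SE 0.33). Both were lowest on array 2 of the YFP-negative group and on array 1 of the YFP-positive group. Neither had a YFP-positive value under the array median, and AT3G25577 was under it on all 3 YFP-negative arrays. In this pair the order of same-numbered differences was also shared, at 6.19, 7.49 and 6.20 for AT3G25573 and 4.46, 5.86 and 5.03 for AT3G25577, each with its largest value in number 2.

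AT1G76220 and AT1G76230 differed in how far they rose on YFP-negative array 3. AT1G76220 was flat at 1.33, 1.28 and 1.40 on YFP-negative arrays and stood at 6.99, 6.02 and 6.44 on YFP-positive arrays, a difference of 5.14 (SE 0.31). AT1G76230 was as low on YFP-negative arrays 1 and 2, at 1.53 and 1.38, but stood at 3.98 on array 3, above 59.5% of the probe sets there. Its YFP-positive values were 8.31, 7.46 and 8.31, so that its difference of 5.73 (SE 0.75) had the wider error of the pair. Both genes were lowest on array 2 of the YFP-positive group. Over the YFP-negative arrays they also shared their order, highest on array 3 and lowest on array 2, though AT1G76220 moved little.

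AT4G19050 and AT4G19060, the nucleotide-binding pair, differed in where their YFP-negative values lay against the array median. AT4G19050 stood at 2.94, 1.69 and 1.78 on YFP-negative arrays and at 7.31, 6.15 and 7.95 on YFP-positive arrays, a difference of 5.00 (SE 0.58). AT4G19060 was above the array median on every array, at 4.99, 5.24 and 5.59 against 8.30, 7.71 and 8.44. Its difference of 2.87 (SE 0.31), or 7.33-fold, was 2.13 smaller than that of its neighbour, and the SD of the gap between the genes within groups was 0.77. Both followed the same order over the YFP-positive arrays, highest on array 3 and lowest on array 2, but not over the YFP-negative arrays, where AT4G19050 was highest on array 1 and AT4G19060 on array 3.

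AT3G06270 and AT3G06280 had close differences and opposite small movements. AT3G06270, the phosphatase gene, was well above the array median in both groups, at 6.05, 7.17 and 6.27 on YFP-negative arrays and 9.29, 9.34 and 9.57 on YFP-positive arrays. Its difference was 2.90 (SE 0.36), or 7.48-fold. AT3G06280 stood at 1.60, 1.38 and 2.68 against 5.12, 4.95 and 4.93, a difference of 3.11 (SE 0.39), and all 3 of its YFP-negative values were under the array median. On YFP-negative array 2 the phosphatase gene had its highest value of the group and AT3G06280 its lowest. Their same-numbered differences ran in opposite order as well, at 3.24, 2.16 and 3.31 for AT3G06270 and 3.52, 3.57 and 2.25 for AT3G06280.

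Only AT3G06270 and AT4G19060 were above the array median on all 6 arrays, and a fold is given for these 2 alone. The members AT1G76220, AT3G06280, AT3G25577 and AT5G67040, 4 in all, were under it on all 3 YFP-negative arrays, as were 53 of the 142 higher genes (37.3%). How far a signal stood over background was not analysed here. For dim members the size of the difference in transcript level, and its rank, is not known. No member was under the array median on a YFP-positive array.

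Profiles over the 6 arrays were alike within every pair, and members of different pairs had similar values. Pearson's r between partners was 0.99 for AT3G25573 and AT3G25577, 0.96 for AT4G19050 and AT4G19060, for AT1G76220 and AT1G76230, and for AT5G67040 and AT5G67050, and 0.91 for AT3G06270 and AT3G06280. The median of these 5 values was 0.961, against 0.966 (0.851 to 0.998) for the 40 combinations of members from different pairs and 0.962 for any 2 of the 142 higher genes. These correlations are set mostly by the difference between the groups, which chose the genes, and the 6 points share their sorts and arrays. Adjacent measured genes over the whole genome, 8222 pairs, had a median r of 0.23, and 3.89% of them reached the lowest value of the 5 pairs.

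In none of the 5 pairs was the partner the gene with the closest profile. For AT3G25573 and AT3G25577 the partner ranked 7 of 16549 other genes in either direction. For AT1G76220 the rank of AT1G76230 was 118, and the reverse rank was 73. For AT4G19050 and AT4G19060 the ranks were 116 and 121, and for AT5G67040 and AT5G67050 they were 136 and 77. In the phosphatase pair AT3G06280 ranked 249 for AT3G06270, and AT3G06270 ranked 219 for AT3G06280.

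Taken as deviations from the group means, which leave the contrast out, the profiles of partners agreed less. The r over these deviations was 0.68 for AT3G25573 and AT3G25577, 0.47 for AT5G67040 and AT5G67050, 0.37 for AT1G76220 and AT1G76230, 0.32 for AT4G19050 and AT4G19060, and -0.49 for AT3G06270 and AT3G06280. Their median of 0.37 lay between the quartiles of the values for any 2 of the 142 higher genes, which were -0.15 and 0.61 around a median of 0.27, and the median for adjacent measured genes was 0.25. Members of different pairs gave both the highest and the lowest values, 0.95 for AT1G76230 with AT3G06280 and -0.86 for AT3G25577 with AT5G67050. With 6 arrays these values are descriptions only.

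**Figure D2:**
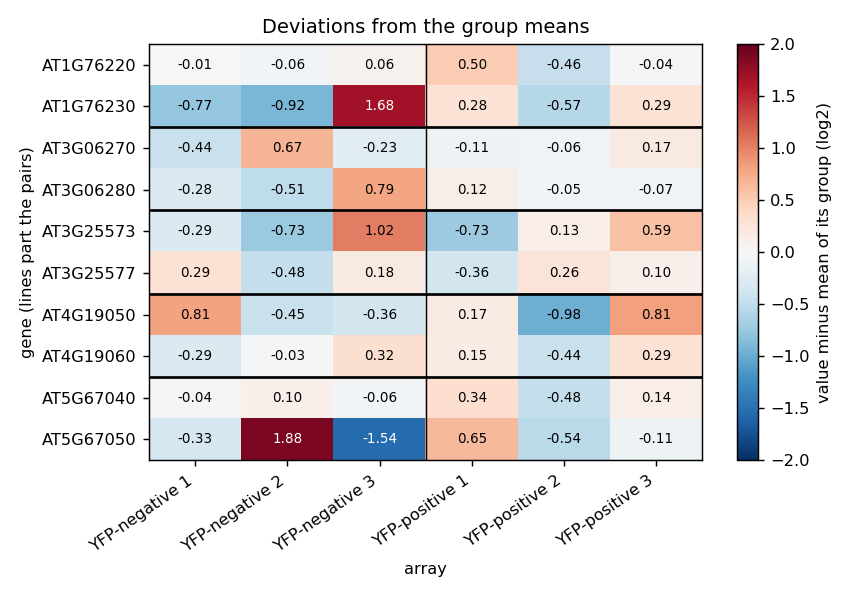
Value minus the mean of its group on the log2 scale (colour and printed number) for each member (rows, with lines between the pairs) on each array (columns). The largest deviations are those of AT5G67050 on YFP-negative array 2 (1.88) and of AT1G76230 on YFP-negative array 3 (1.68), and in neither does the partner deviate by more than 0.10.

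Particular arrays recurred across pairs, and the array medians differed as well. YFP-negative and YFP-positive medians were lowest on array 2 (2.10 and 2.20) and highest on array 3 (2.80 and 2.92). The share of all genes with an extreme on each array was not counted, so nothing is read from the members' counts. YFP-negative array 3 held the highest YFP-negative value of 5 members, among them AT1G76230, AT3G06280 and AT3G25573, and YFP-negative array 2 that of 3 members, AT3G06270, AT5G67040 and AT5G67050. On YFP-negative array 2 another 6 members had their lowest YFP-negative value. YFP-positive array 2 held the lowest YFP-positive value of 6 members. Partners shared the array of their lowest YFP-positive value in 4 of 5 pairs and that of their highest YFP-positive value in 2 of 5. Of all adjacent measured pairs 45.0% and 41.8% did so. For the lowest YFP-negative value it was 3 of 5 and for the highest 2 of 5, against 41.0% and 38.3% of all adjacent measured pairs.

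Genes beside the pairs, which the choice of members did not use, were tested in the same limma fit. Up to 5 measured genes on each side were taken within 15 RefSeq genes, 49 in all, of which 5 were next to a pair with no gene between. In limma 0 of the 49 passed at an adjusted p under 0.05, against 1.08% of all genes in either direction, and 4, all with positive differences, had an unadjusted p under 0.05 (8.16%, against 4.54% of all genes in that direction and 7.96% in either). Under the replicate block limma gave 13 of the 49 an unadjusted p under 0.05, 11 of them with positive differences, where 13.8% of all genes did in either direction and 7.34% in the positive one. Their median difference was 0.14, with a range from -0.83 to 2.45, where all genes had a median of -0.04. Groups did not overlap in the higher direction for 5 of the 49 (10.2%, against 4.96% of all genes).

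The nearest measured genes of the first 2 pairs had differences near 0 or within about their SE in the fit without a block. Next to AT1G76220, AT1G76210 was dim on every array, at 1.13, 1.14 and 0.93 on YFP-negative and 1.13, 0.86 and 1.03 on YFP-positive arrays, a difference of -0.06 (SE 0.23). On the far side of AT1G76230 the nearest measured gene, AT1G76240, had a difference of -0.30 (SE 0.48). Beside the phosphatase pair, AT3G06240 and AT3G06310 differed by 0.80 (SE 0.80) and 0.07 (SE 0.66). None of these 4 passed in that limma fit, each with an adjusted p that rounds to 1. Under the replicate block the SE fell to 0.23 for AT3G06240 and 0.17 for AT1G76240. Their same-numbered differences were 0.49, 1.32 and 0.59 for the first and 0, -0.36 and -0.53 for the second. With the block limma gave adjusted p of 0.278 for AT3G06240, 0.538 for AT1G76240, 0.870 for AT1G76210 and 0.915 for AT3G06310.

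Around AT3G25573 and AT3G25577 both immediate neighbours were measured. AT3G25570, which encodes an S-adenosylmethionine decarboxylase of polyamine synthesis, stood at 1.14, 0.87 and 3.48 against 2.66, 1.65 and 5.02, so the groups overlapped, with a difference of 1.28 (SE 1.07). Its same-numbered differences were all positive, at 1.52, 0.77 and 1.53. Under the replicate block its SE was 0.23 and its adjusted p in limma 0.132. AT3G25580, a thioredoxin-like gene, stood at 6.50, 7.13 and 6.36 against 7.45, 7.35 and 7.32. Its groups did not overlap, and limma gave its difference of 0.71 (SE 0.29) an adjusted p of 0.615.

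Beside AT4G19050 and AT4G19060 both immediate neighbours were measured as well. AT4G19045 had a difference of -0.02 (SE 0.59), and AT4G19070 one of 1.001 (SE 0.71), and in limma the adjusted p of each rounds to 1. AT4G19006, the 8th RefSeq gene before the pair and named after its values were seen, encodes a subunit of the proteasome lid and had the smallest adjusted p of the 49, at 0.068 in limma. It stood at 7.59, 6.90 and 7.11 on YFP-negative arrays and at 8.90, 8.71 and 8.74 on YFP-positive arrays, a difference of 1.59 (SE 0.27), and over the alternatives its adjusted p ran from 0.047 to 0.317.

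The surroundings of AT5G67040 and AT5G67050 held the 2 largest differences among flanking genes. AT5G67020, the nearest measured gene before the pair, stood at 2.90, 2.61 and 2.01 against 4.30, 3.69 and 4.29, a difference of 1.58 (SE 0.34) to which limma gave an adjusted p of 0.134. RALFL34, which encodes a signalling peptide of the RALF family, was the nearest after it, with a difference of -0.83 (SE 0.57). AT5G67090, a subtilisin-like protease gene 4 RefSeq genes after the pair, and ALC, a basic helix-loop-helix transcription factor gene known from fruit opening, were named after their values were seen. AT5G67090 stood at 4.57, 4.78 and 2.91 against 6.77, 6.90 and 5.22, a difference of 2.21 (SE 0.68) to which limma gave an adjusted p of 0.342. Its same-numbered differences were 2.21, 2.12 and 2.31, and its adjusted p in limma was 0.044 once the replicate number entered as a block, the only call among the 49 in that fit. ALC had overlapping groups and a difference of 2.45 (SE 1.04), with same-numbered differences of 2.08, 3.18 and 2.06. Its adjusted p in limma was 0.665, or 0.081 with an SE of 0.30 under the block.

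**Figure D3:**
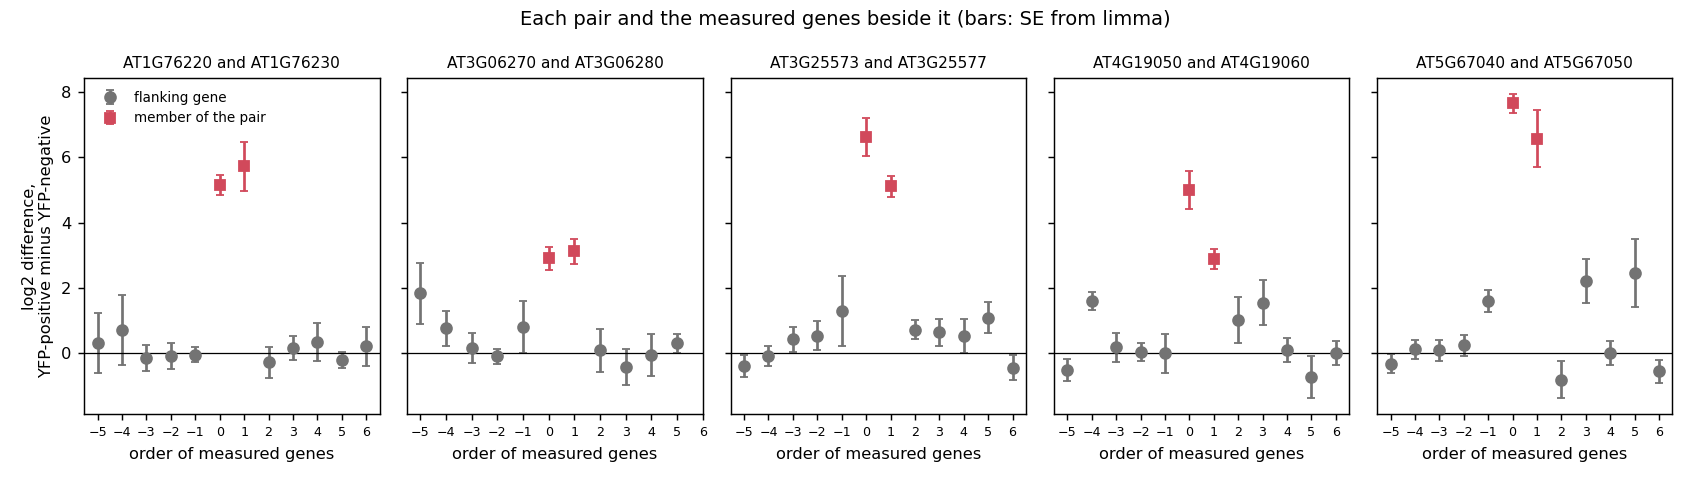
Log2 difference, YFP-positive minus YFP-negative (y axis, bars are the SE from limma), of each pair and of the measured genes beside it in chromosome order (x axis: the pair at 0 and 1, genes before it at negative numbers, genes after it from 2 on). The members lie at 2.87 to 7.66 and the flanking genes between -0.83 and 2.45.

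Among the listed relatives of the members by family no gene passed. Of 73 listed protein phosphatases of type 2C other than AT3G06270, 43 were measured, 22 with positive differences, and their median was 0.01. Of 51 nucleotide-binding leucine-rich repeat genes 26 were measured, 9 with positive differences, with a median of -0.20. Of 23 class 3 lipase genes 14 were measured, 3 with positive differences, with a median of -0.10. Of a list of 25 named F-box genes 4 were measured, 2 with positive differences, with a median of 0.09. F-box genes outside this list were not counted, so nothing is said here of that family as a whole. In limma 0 of these 87 genes passed, and 4 had an unadjusted p under 0.05, 1 of them with a positive difference, against 1318 of the 16550 genes (7.96%). The block raised the 4 of 87 to 14, of which 5 had positive differences. The share of all genes rose as well, to 13.8% in either direction and 7.34% in the positive one.

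Of the genes with the smallest p in each family list, 3 of 4 had negative differences. AT1G34750, a phosphatase gene, had a difference of -2.28 (SE 0.36), and its adjusted p of 0.0532 in limma ran from 0.0223 to 0.236 over the alternatives. DLAH, an acylhydrolase gene among the lipases, had a difference of -1.23 (SE 0.32) and AT1G58602 among the immune receptor genes one of -1.17 (SE 0.69), with an adjusted p of 0.242 in limma for the first and one that rounds to 1 for the second. SLY1, an F-box gene of gibberellin signalling, had a positive difference of 1.67 (SE 0.32) and an adjusted p of 0.091 in limma.

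Genes outside the pairs whose profile was closest to a pair's mean over the 6 arrays were the 2 with the highest r for each pair. They were AT1G13050 and AT2G40390 for AT1G76220 and AT1G76230, AT1G68238 and AT1G11915 for the phosphatase pair, and AT3G01940 and AT5G50290 for AT3G25573 and AT3G25577. For AT4G19050 and AT4G19060 they were AT1G75260 and AT3G22961, and for AT5G67040 and AT5G67050 they were AT5G38080 and AT5G20870, the latter a gene of glycoside hydrolase family 17. Their r with the pair's mean ran from 0.996 for AT5G50290 to 0.999 for AT1G75260. Over 0.99 were 7 genes for the mean of AT3G25573 and AT3G25577 and 32 for that of AT4G19050 and AT4G19060.

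Among all 8222 adjacent measured pairs, 9 had both genes called higher in the limma fit without a block, which is 0.109%. In that fit 127 had 1 gene called higher without its neighbour, and 0 had both genes called lower. The 5 pairs are among these 9. Under the replicate block limma called both genes for only AT3G25573 and AT3G25577 of the 5 pairs. Without YFP-positive replicate 3 it called both genes in no pair of the 5. How many of all adjacent pairs had both genes called in those fits was not counted. Of the 142 higher genes, 102 had a measured immediate neighbour. They had 145 such neighbours in all, each counted for every called gene beside it. Of these, 18 were called higher themselves in the fit without a block, where 0.858% of all 16550 genes were. The 18 included all 10 members, which the same contrast chose, so nothing is read from this count.

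**Figure D4:**
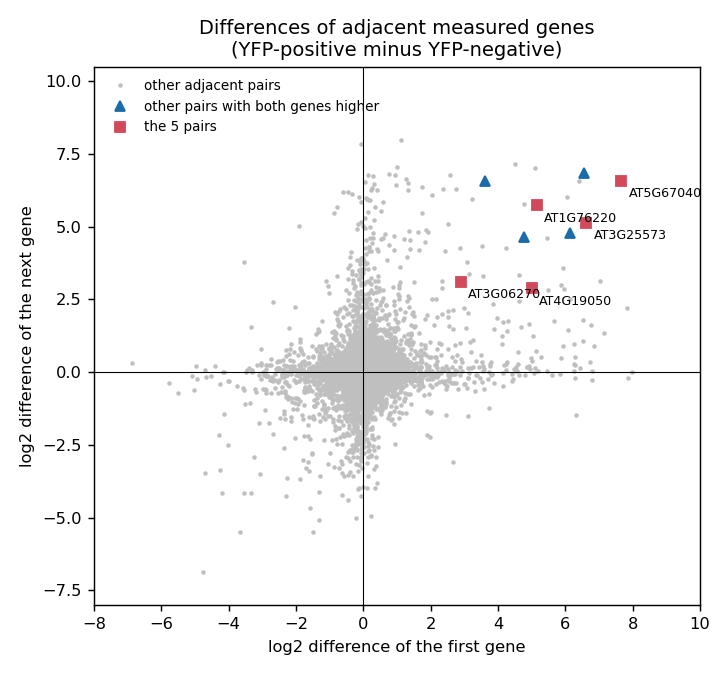
Log2 difference, YFP-positive minus YFP-negative, of the first gene (x axis) and the next gene (y axis) for 8222 adjacent measured pairs (grey), with the 5 pairs as squares labelled by their first gene and the 4 other pairs with both genes called higher as triangles. The 5 squares lie at 2.87 or more on both axes.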

How the data were processed

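The authors deposited 1 table of log2 values for 38408 probe sets on 6 Affymetrix arrays, the output of RMA, per the submitters' processing notes; its version is not given in the sources used here. Per the labels' protocols, RNA was amplified and biotin-labelled. The log2 scale was inferred from the values. Array medians ran from 2.10 to 2.92, differing mainly by replicate number, so how the arrays were scaled together is not known. For some genes both arrays of a number held exactly equal values, as those of number 1 did for AT1G76210 (1.13) and AT3G62260 (9.02). Such a tie gives a same-numbered difference of 0, and its cause was not tested. Genes were named through the platform annotation and updated by gene ID: 16722 probe sets named 1 gene, 759 named several genes and 20927 were not named here. Of several probe sets of a gene (146 genes) the one with the highest mean was used. Gene order came from RefSeq, assembly TAIR10.1 (16411 of 16550 gene IDs matched). The array table names no build, so no coordinates are given, and no gene sequence was used here.

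Differences were fitted with limma 3.58.1 in R 4.3.3 over 16550 genes, two-sided, with Benjamini-Hochberg adjustment and a threshold of 0.05, without a block. The fit was run on simulated data with independent noise on each array. That check does not cover deviations shared by same-numbered arrays, which these data have. Deviations of same-numbered arrays from their group means correlated at 0.66, 0.61 and 0.49 across genes. The numbers from the sample titles were therefore taken to pair the arrays, and a fit with the number as a block was run as well. Whether these correlations come from the samples or from the processing was not tested. Named were the 10 members, per pair the 2 closest profiles, the nearest and any called flanking genes, and of each family the gene with the smallest p and any called. AT4G19006, AT5G67090, ALC, AT3G62260 and the genes of the 4 other adjacent pairs and of the pairs just outside the threshold were chosen after their values were seen. Members and gene lists were chosen with earlier results of these data known. Alternatives were quantile normalization, median centring, the mean of probe sets, array weights, a filter on dim genes, the block, and leaving out arrays. The number of arrays limits the precision.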

Additional observations from a re-analysis of the deposited data

How the results depend on the processing

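All 10 members kept a positive difference in each of 13 alternatives, and in 130 of 130 cases the difference moved by less than the SD within groups. Much of this was fixed in advance. The block, the mean of probe sets and the filter leave a member's difference unchanged. Because the members' groups do not overlap, leaving out arrays cannot turn a difference negative. AT1G76220, AT3G25577 and AT5G67040 passed in limma in all 13 alternatives, AT3G25573 in 11, and the other 6 members in 6 or 7. With the replicate block limma called 90 genes and 4 members, without both arrays of number 2 it called 5 members, and leaving out 1 array gave 37 to 164 genes and 3 to 7 members, lowest without YFP-positive replicate 3. Without YFP-negative replicate 3 the genes called were 38, without YFP-positive replicates 1 and 2 they were 81 and 94, and the members called were 6, 4 and 6, and 5 without YFP-negative replicate 1. Median centring gave 384 genes (69.0% higher, against 79.3%), and the filter on dim genes 343 (72.0% higher). Fewer genes tested or arrays fitted follow from the filter and from leaving arrays out; the cause was not tested for the other settings. Flanking genes called were 0 in all but 2 alternatives, with 1 under the block (AT5G67090) and 1 under quantile normalization (AT4G19006), and family genes called were 1, AT1G34750, under quantile normalization, median centring and the filter. Leaving out 1 array gave 0 flanking and 0 family genes called in limma. At an unadjusted p under 0.05 in limma it gave 2 to 7 of the 49 and 4 to 8 of the 87, where 5.53% to 9.56% of all genes passed. Quantile normalization gave 8 of each at that level, where 9.73% of all genes passed. Of these, 8 flanking and 2 family genes had positive differences, where 5.69% of all genes passed in that direction. Leaving out 1 array, r between partners ran from 0.952 to 0.998 for AT1G76220 and AT1G76230, from 0.877 to 0.976 for AT3G06270 and AT3G06280, from 0.986 to 0.996 for AT3G25573 and AT3G25577, from 0.951 to 0.996 for AT4G19050 and AT4G19060, and from 0.946 to 0.994 for AT5G67040 and AT5G67050. Quantile normalization gave 0.858 for the phosphatase pair, 0.928 for AT4G19050 and AT4G19060 and 0.935 for AT5G67040 and AT5G67050. Without both arrays of number 2 the values were 0.972 for the phosphatase pair, 0.983 for AT3G25573 and AT3G25577 and 0.993 for AT5G67040 and AT5G67050.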

Other observations

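The other 4 adjacent pairs with both genes called higher were AT3G01950 and AT3G01960, AT5G04690 and AT5G04700, AT5G20860 and AT5G20870, and AT5G56430 and AT5G56440. The first of these is the only one whose genes overlap in the RefSeq table, and whether their probe sets share signal was not tested. AT5G04690 and AT5G04700, ankyrin repeat genes, had the closest profiles of all 9 pairs, with r = 0.996 over the 6 arrays, and both were highest among YFP-negative arrays on array 2, at 3.74 and 4.35. AT5G67050 was also highest there, at 4.95, as was its neighbour AT5G67040, at only 1.12. In AT5G20860 and AT5G20870 the differences were 3.63 and 6.58, and AT5G20870 had its highest YFP-negative value on array 2 (3.48) where AT5G20860 had its own on array 3 (2.62). These values are descriptions, since the same contrast chose the pairs.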
